A study of Mus musculus with 18 samples.

Results

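The genes described here sense RNA in the cytosol and the endosome, or keep the cell's own nucleic acids from being sensed. They were taken from a list of 9 mouse genes by their symbols, out of 48795 genes in the table: the sensors Ddx58, Ifih1, Dhx58 and Tlr3, the adaptor Mavs, the kinase Eif2ak2, and the enzymes Adar, Samhd1 and Trex1. All 9 were in the table and 8 had reads. RNA came from GL261, a mouse glioma cell line labelled with GFP, and from the tumours it formed after injection into C57BL/6 mice. The hosts were wild-type (WT) or Pfp/Rag2-/-, with 6 mice of each, and tumours were taken from mice with symptoms and digested with collagenase. Pfp/Rag2-/- mice have no perforin and no mature T or B lymphocytes, and keep macrophages, microglia and natural killer (NK) cells. The 6 groups had 3 libraries each: sorted GFP+ cells from the culture used for injection, sorted GFP+ cells from WT and from Pfp/Rag2-/- tumours, unsorted cells from WT and from Pfp/Rag2-/- tumours, and sorted GFP- cells from WT tumours. All groups share the injected line, no drug treatment is labelled, and the age of the mice is not given. The labels do not tell whether a library holds 1 tumour or a pool, so every p-value below reflects the spread among 3 libraries a group, which may be technical.

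RIG-I-like receptors are helicases that bind viral or misplaced cellular RNA in the cytosol. Ddx58 encodes RIG-I, which recognises double-stranded ends carrying triphosphates, Ifih1 encodes MDA5, which coats long double-stranded RNA, and Dhx58 encodes LGP2, which lacks the signalling domains and tunes the other two. RIG-I and MDA5 signal through Mavs on mitochondria to the kinase Tbk1 and to interferon genes, while Tlr3 reads double-stranded RNA in endosomes and signals through the adaptor Ticam1. Interferon in turn raises most of these sensors, which is how the pathway amplifies itself in infected tissue and in inflamed tumours. Eif2ak2 encodes PKR, which stops translation by phosphorylating eIF2-alpha when it binds double-stranded RNA. Adar deaminates adenosines in double-stranded RNA, Samhd1 breaks down deoxynucleotides, and Trex1 degrades DNA in the cytosol, so that each of these enzymes limits sensing of the cell's own nucleic acids.

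Promoters are shown because several of these genes are textbook interferon targets and moved in different directions between the groups. RefSeq (GRCm38.p6) windows of 300 bases, from 250 bases before to 50 after a start site, were found for 8 genes, Dhx58 being the one without a window, and Adar has 3 start sites. Each window was searched on both strands for an interferon-stimulated response element (ISRE, here GAAA and GAAA with any 2 bases between them), for the shorter core bound by interferon regulatory factors (IRF core, AANNGAAA, which can lie within an ISRE) and for a STAT site (GAS, TTCNNNGAA). An ISRE match lay in 3.44% of 32851 RefSeq windows, an IRF core in 23.9% and a GAS in 8.30%. The stretches of 30 bases below run 5′ to 3′ on the gene's strand, and capitals mark the matches.
Ddx58, IRF core: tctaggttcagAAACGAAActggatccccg
Ddx58, ISRE on the opposite strand: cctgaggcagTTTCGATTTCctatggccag
Ifih1, ISRE with IRF cores: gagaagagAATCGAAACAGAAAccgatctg
Tlr3, IRF core on the opposite strand: aagtgaatggcTTTCACTTtgtttagacac
Eif2ak2, ISRE: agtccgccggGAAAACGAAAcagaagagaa
Eif2ak2, GAS: cctgcagagctTTCCCAGAAtggaagccag
Adar, GAS and IRF core at start site 3: gaagccttTTCAAGGAAACGAAAgtgaact
Samhd1, GAS: aacaccaccctTTCGGAGAAacacaagggc

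The Ddx58 stretches lie at chr4:40239866-40239895 and chr4:40239804-40239833, and the Ifih1 stretch at chr2:62646206-62646235, all on the minus strand. The Tlr3 stretch lies at chr8:45410421-45410450 and the Eif2ak2 stretches at chr17:78882535-78882564 and chr17:78882732-78882761, also on the minus strand. The Adar stretch lies at chr3:89730732-89730761 on the plus strand and the Samhd1 stretch at chr2:157135313-157135342 on the minus strand. ISRE matches were found for Ddx58, Ifih1 and Eif2ak2. The windows of Mavs and Trex1 held no match. A match describes letters in these windows and says nothing of binding in these cells.

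The transcripts counted come from these GRCm38 loci: Ddx58 on chromosome 4 (40203773 to 40239828), Ifih1 on chromosome 2 (62595798 to 62646255), Dhx58 on chromosome 11 (100694884 to 100704271) and Tlr3 on chromosome 8 (45395665 to 45411080). Mavs lies on chromosome 2 (131234063 to 131248025), Eif2ak2 on chromosome 17 (78852564 to 78882573), Adar on chromosome 3 (89715022 to 89753446) and Samhd1 on chromosome 2 (157097533 to 157135265). Trex1 lies on chromosome 9 (109057933 to 109059734) and was listed at 0 in all 18 libraries. A count of 0 allows up to 3 reads in a library, by counting error alone. All of the 1147 exon bases of Trex1 also belong to Atrip on the same strand, and the part of this overlap in the zeros was not tested, so no level of Trex1 is given and it enters no comparison. Of the exon bases of Adar, 16.8% are shared with Chrnb2 on the opposite strand, and shares of at most 7.32% were found for Dhx58, Tlr3 and Eif2ak2.

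Reads assigned to genes, recovered from the deposited values, summed to between 19172814 and 21141662 in each library. Levels are given as normalized counts, the reads of a gene divided by the library's size factor. The authors had divided GFP- libraries by size factors of 0.649 to 0.761, and all other libraries by 1.04 to 1.15. The 18 macrophage and microglia markers summed to 0.134% to 0.155% of their GFP- mean in culture, where 7 or 8 markers were at 0 in each library, among them Itgam, Adgre1 and Tyrobp. The same sum was 1.63% to 3.51% in WT GFP+ cells, 1.48% to 3.05% in Pfp/Rag2-/- GFP+ cells, 6.25% to 8.83% in WT unsorted cells and 2.16% to 2.39% in Pfp/Rag2-/- unsorted cells. One of these markers, Tmem119, stood at 80.6% to 192% of its GFP- mean in the GFP+ tumour libraries and made up at least 20.9% of each of their sums. The other 17 markers summed to 1.07% to 2.74% in WT GFP+ cells, 0.590% to 2.43% in Pfp/Rag2-/- GFP+ cells, 5.65% to 6.21% in WT unsorted cells and 1.85% to 2.13% in Pfp/Rag2-/- unsorted cells. The GFP+ libraries numbered 1 stood apart by their NK cell markers, with sums of 853 (WT) and 1695 (Pfp/Rag2-/-) normalized counts against 35.9 to 90.3 in the other 4 GFP+ tumour libraries. Their T cell sums (780.5 and 484 against 207 to 362) and dendritic cell sums (830 and 1081 against 247 to 481) were also the highest. The 5 GL261 markers summed to 144% to 198% of their GFP- mean in WT GFP+ cells and 111% to 123% in Pfp/Rag2-/- GFP+ cells. The GFP- libraries, at 75.5% to 131%, overlapped the latter. Within this list Nes (246 to 1062 normalized counts in GFP- cells, 5182.5 to 6578 in GFP+ tumour cells) and Pdgfra (49.3 to 238 against 1112 to 2109) did not overlap between the fractions. Most of the GFP- sums, 41180 to 71230 normalized counts, came from the list's other members, Vim, Cd44 and Sox9. Sox9 had no read in the cultured libraries or in WT GFP+ library 2. Gene totals do not show which exons carry reads, so Prf1 (2077 to 3699 normalized counts in GFP- cells, 99.0 to 139 in WT unsorted cells, 7.11 to 16.2 in Pfp/Rag2-/- unsorted cells, 4.75 to 118 in WT GFP+ cells and 0.921 to 117 in Pfp/Rag2-/- GFP+ cells, with the libraries numbered 1 highest in both) and Rag2 (at most 6.34, in a Pfp/Rag2-/- unsorted library) do not check the deletions.

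Per kilobase of exon, Ddx58 was the most abundant of the 8 genes in cultured cells, at 1358.5 normalized counts per kilobase, against 587 for Eif2ak2, 325 for Ifih1, 324 for Adar, 306 for Samhd1, 279 for Dhx58, 266 for Mavs and 107 for Tlr3. In WT GFP- cells Samhd1 stood first at 1932 per kilobase and Dhx58 next at 963, while Ddx58 stood at 527 and Tlr3 last at 154. Ordered by normalized count, Ddx58 ran from cultured cells (9578 ± 195, SD, n = 3) through both Pfp/Rag2-/- tumour groups to WT GFP+, WT unsorted and WT GFP- cells (3718 ± 292), and neighbours overlapped only among its last 3 groups. Ifih1, Dhx58, Adar and Samhd1 were most abundant in GFP- cells, with no overlap with the next group. Tlr3 was most abundant in WT unsorted cells, apart from WT GFP+ cells next in order, and least in Pfp/Rag2-/- GFP+ cells, which overlapped cultured cells. Mavs and Eif2ak2 were most abundant in culture, where they overlapped the next group.

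**Figure D1:**
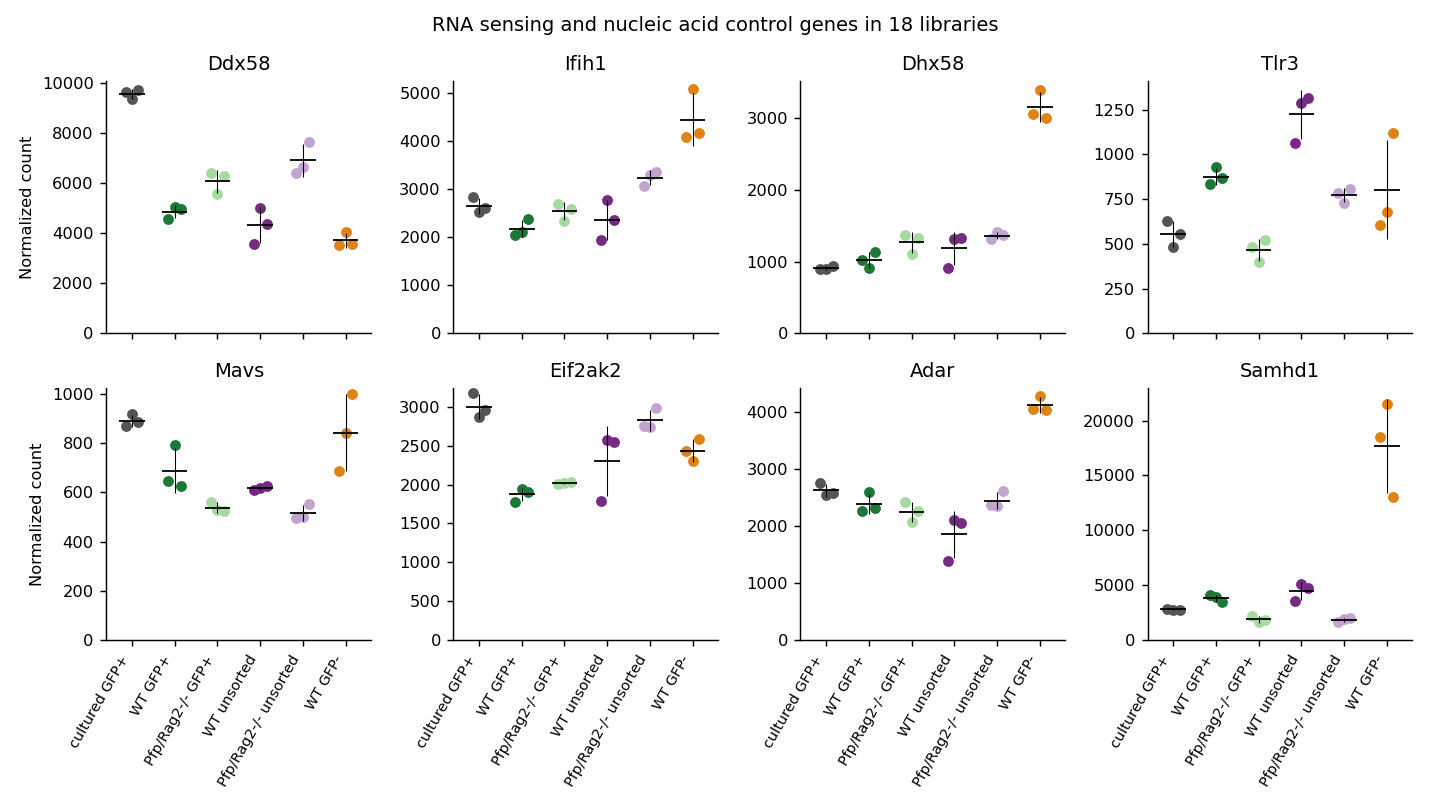
Normalized counts of the 8 genes with reads (vertical axes, linear from 0) in the 6 groups (horizontal axis); points are single libraries, the horizontal bar is the mean and the vertical line 1 SD, n = 3. Ddx58 averages 9578 in culture and 3718 in GFP- cells, while Samhd1 averages 17675 in GFP- cells.

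The host comparison in sorted GFP+ cells asks whether glioma cells from an immunocompetent host differ from those of a host without mature T and B cells and without perforin. Tlr3, Mavs and Samhd1 were higher in cells from WT hosts, and Ddx58 was lower. Differences were tested with limma on the log2 scale, and a gene was called, or passed, at a Benjamini-Hochberg adjusted p under 0.05 over all genes tested. These calls are 4 of the 8 genes, against 30.4% of all 14807 genes tested, of which 15.3% were higher and 15% lower. The median log2 difference (WT minus Pfp/Rag2-/-) was -0.01 over the 8 genes and -0.02 over all genes. In cells from a tumour, a lower value can mean fewer cells of the type that makes the transcript or less RNA per cell, and these cannot be told apart in bulk libraries.

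Among the sensors, Tlr3 stood at 832, 928 and 867 normalized counts in the WT GFP+ libraries and at 480.3, 397 and 521 in the Pfp/Rag2-/- GFP+ libraries. Every WT library was above every Pfp/Rag2-/- library, and the log2 difference was 0.92 ± 0.11 (SE), a 1.89-fold higher level (adjusted p = 0.00169). Ddx58 showed the opposite order, with 4568, 5036.5 and 4987 in WT hosts against 6404, 5556 and 6276 in Pfp/Rag2-/- hosts. The groups did not overlap, and the log2 difference was -0.32 ± 0.07 (adjusted p = 0.0159). Ifih1 had 2051, 2103 and 2386 in WT hosts and 2698, 2333 and 2589.9 in Pfp/Rag2-/- hosts, groups that overlapped in 1 library of each, with a log2 difference of -0.22 ± 0.08 (adjusted p = 0.0758). Dhx58, the regulator of the other helicases, had 1021, 911 and 1129 against 1368, 1103 and 1328, which also overlapped, with a log2 difference of -0.31 ± 0.11 (adjusted p = 0.0702). Dhx58 passed the threshold with the replicate number as a block (adjusted p = 0.0168). Without WT GFP+ library 3 both passed as lower in WT hosts (Ifih1 at -0.29, adjusted p = 0.0236, and Dhx58 at -0.39, 0.0371), and Dhx58 also did without Pfp/Rag2-/- GFP+ library 2 (-0.41, 0.0455).

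The adaptor Mavs stood at 646, 791 and 624 in WT hosts and at 562, 528 and 523 in Pfp/Rag2-/- hosts, a log2 difference of 0.35 ± 0.10 (adjusted p = 0.0391). The WT values were above all others, and the highest of them was library 2. The call of Mavs was lost when any library other than WT GFP+ 3 was left out, with adjusted p of 0.0610 to 0.117. The kinase Eif2ak2 had 1781, 1941 and 1903.5 against 2012, 2019 and 2034.5, which did not overlap, with a log2 difference of -0.11 ± 0.05 that did not pass (adjusted p = 0.136). Among the control enzymes, Samhd1 had 4085.5, 3909 and 3439 in WT hosts against 2225.5, 1668 and 1798 in Pfp/Rag2-/- hosts. Here too the groups were far apart, and the level was 2.02-fold higher in WT hosts (log2 difference 1.01 ± 0.12, adjusted p = 0.00147). Adar, the RNA editor, had 2269.7, 2598 and 2315 against 2425.5, 2069 and 2269, overlapping groups with a log2 difference of 0.09 ± 0.08 (adjusted p = 0.437).

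In all, 5 of the 8 genes had groups that did not overlap, against 48.7% of all genes tested. Multiplying the GFP- mean by each library's macrophage share gives the amount that such cells could carry in: 7.38% to 24.3% of the Samhd1 level, 3.57% to 10.8% of Dhx58, 1.41% to 5.10% of Tlr3 and 0.892% to 2.86% of Ddx58. With that amount subtracted, the difference was 1.11 for Samhd1 (adjusted p = 0.00304), 0.93 for Tlr3 (0.00617) and -0.33 for Ddx58 (0.0266), while Mavs lost its call (0.0683). From the 17 markers without Tmem119, a share chosen after seeing the data, the amounts were 4.81% to 19.3% for Samhd1, 1.40% to 8.45% for Dhx58, 0.910% to 4.06% for Tlr3 and 0.350% to 2.23% for Ddx58. Subtracting those gave 1.05 for Samhd1 (adjusted p = 0.000804), 0.92 for Tlr3 (0.00337), -0.33 for Ddx58 (0.0207) and 0.34 for Mavs (0.0526). The 8 pericyte and fibroblast markers summed to 490.3 to 936 normalized counts in WT GFP+ libraries and 2093 to 5151 in Pfp/Rag2-/- GFP+ libraries. Of the 8 markers, 7 or 8 were present in each. The same markers summed to 2161 to 2336 in cultured GFP+ cells, with 3 to 7 present, so these sums are not a measure of host cells alone. The part of such host cells in these results was not tested. Without both GFP+ libraries numbered 1, an alternative chosen after seeing the data, Tlr3 (0.98, adjusted p = 0.00859) and Samhd1 (1.08, 0.00125) stayed past the threshold, and Ddx58 (-0.24, 0.101) and Mavs (0.42, 0.0763) did not. Ddx58 also lost its call without WT GFP+ library 1 (0.0512) or Pfp/Rag2-/- GFP+ library 3 (0.0633). With all 18 libraries in 1 fit both Ddx58 (adjusted p = 0.0520) and Mavs (0.0514) missed the threshold, and Mavs also did without a filter on low values (0.0609). Scaled to equal library totals, 33.9% of all calls were higher in WT hosts, against 50.5% with the authors' factors, and the median of all genes moved from -0.02 to -0.10. The calls of Tlr3, Samhd1 and Ddx58 were kept under that scaling, Mavs lost its call (adjusted p = 0.0733), and Ifih1 (-0.31), Dhx58 (-0.40) and Eif2ak2 (-0.20) passed as lower. With quantile normalization Ifih1 (-0.31, adjusted p = 0.0373), Dhx58 (-0.36, 0.0499) and Eif2ak2 (-0.19, 0.0254) also passed as lower. Dhx58 did so with DESeq2 on recovered reads as well (-0.30, adjusted p = 0.0440).

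**Figure D2:**
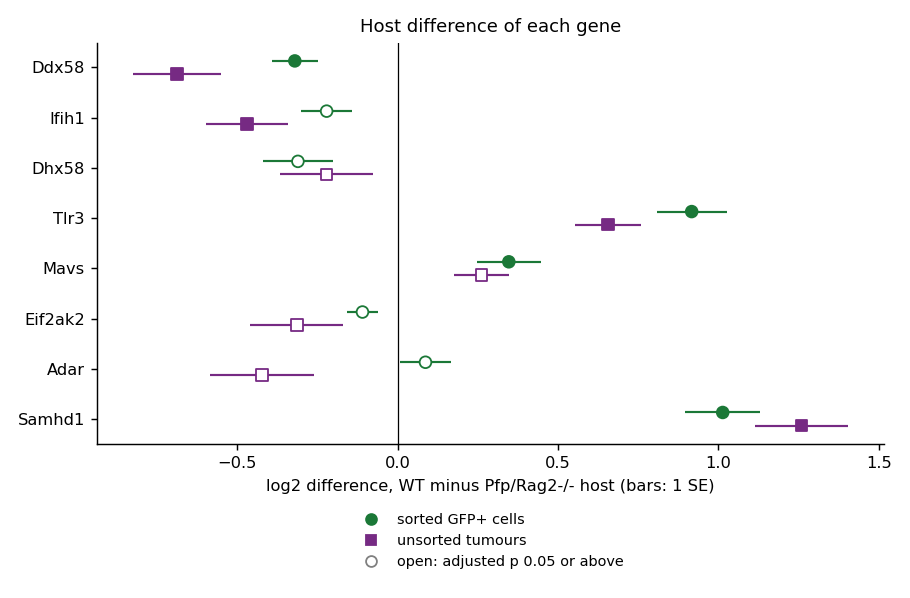
Log2 difference between WT and Pfp/Rag2-/- hosts (horizontal axis) for each gene in sorted GFP+ cells (circles) and unsorted tumours (squares); bars are 1 SE and filled symbols have an adjusted p under 0.05. Samhd1 (1.01 and 1.26) and Tlr3 (0.92 and 0.66) lie to the right, and Ddx58 (-0.32 and -0.69) to the left.

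In unsorted tumours, which hold tumour and other cells, Tlr3 and Samhd1 were again higher in WT hosts and Ddx58 and Ifih1 were lower. The count was 4 of 8 genes, against 29.9% of 15448 genes tested (15.1% higher and 14.8% lower), and the median log2 difference was -0.27 over the 8 genes and -0.05 over all genes. Groups did not overlap for 7 of the 8 genes, against 48.4% of all genes. The labels do not tell whether sorted and unsorted libraries came from the same mice.

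Tlr3 stood at 1064, 1290.1 and 1316 normalized counts in WT unsorted libraries and at 783, 727 and 809 in Pfp/Rag2-/- unsorted libraries. All WT values were above all Pfp/Rag2-/- values, with a log2 difference of 0.66 ± 0.10 (adjusted p = 0.00404). Ddx58 had 3578, 5011 and 4379.9 in WT hosts against 6420.4, 6665 and 7667, again without overlap and with lower values in WT hosts, a log2 difference of -0.69 ± 0.14 (adjusted p = 0.00976). Ifih1 had 1949, 2767 and 2358 against 3061, 3293 and 3354, a log2 difference of -0.47 ± 0.13 (adjusted p = 0.0308). The MDA5 gene was thus lower in WT tumours, and its call was lost when WT unsorted library 3 or any Pfp/Rag2-/- unsorted library was left out (adjusted p = 0.0605 to 0.105). Dhx58 had 917, 1309 and 1329.6 against 1312, 1409 and 1370.5, overlapping groups with a log2 difference of -0.22 ± 0.15 (adjusted p = 0.284).

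Mavs had 608, 618 and 626 in WT unsorted libraries and 494, 501 and 552 in Pfp/Rag2-/- ones. The groups were apart, and the log2 difference of 0.26 ± 0.09 did not pass with limma (adjusted p = 0.0554) but passed with edgeR (0.0383) and DESeq2 (0.0274) on recovered reads. Eif2ak2 had 1788, 2580.2 and 2544 against 2757, 2739 and 2984, a log2 difference of -0.31 ± 0.14 (adjusted p = 0.143). Adar had 1388.5, 2117 and 2065 against 2370.2, 2352.5 and 2623, a log2 difference of -0.42 ± 0.16 (adjusted p = 0.0895). For both genes the groups did not overlap, and WT unsorted library 1 was the lowest. Without that library Adar passed at -0.23 (adjusted p = 0.0362), as did Mavs at 0.27 (0.0382), and Eif2ak2 did not (-0.14, 0.109). With all 18 libraries in 1 fit both Eif2ak2 (adjusted p = 0.0435) and Adar (0.0205) passed as lower in WT tumours. Samhd1 had 3583, 5113 and 4787 against 1660.4, 1927 and 1999, a 2.39-fold higher level in WT tumours (log2 difference 1.26 ± 0.15, adjusted p = 0.00125). The macrophage and microglia sum was also higher in every WT unsorted library (6.25% to 8.83% of the GFP- mean) than in any Pfp/Rag2-/- one (2.16% to 2.39%), with all 18 markers present in both. The 10 T cell markers likewise summed to 633 to 1103 normalized counts in WT and 217 to 300.2 in Pfp/Rag2-/- unsorted libraries. NK cell markers summed to 548 to 768.5 against 102 to 127, and dendritic cell markers to 1028 to 2027 against 540.1 to 680. B cell markers, at low levels, summed to 21.6 to 30.5 against 5.43 to 9.77. Other lists were higher in every Pfp/Rag2-/- unsorted library than in any WT one. Their neuron markers summed to 1435 to 5108 against 811 to 1370.0 normalized counts, pericyte and fibroblast markers to 2637 to 3763 against 890.3 to 2094, and oligodendrocyte markers to 153% to 247% against 92.1% to 139% of the GFP- mean. Cultured GFP+ cells gave sums of 2161 to 2336 for pericyte and fibroblast markers and 424% to 451% for oligodendrocyte markers. Their T cell markers summed to 187 to 212 and their neuron markers to 63.3 to 85.9 normalized counts. The line itself thus carries transcripts of these lists, so the sums are not a measure of host cells alone. The part of cell types in the unsorted values was not tested.

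The host effect in sorted cells was set against that in unsorted cells in 1 fit of the 12 libraries. By limma, 0 of the 8 genes differed at an adjusted p under 0.05, against 0.934% of 16161 genes. Of all genes, 0.712% were called with a positive and 0.223% with a negative difference (sorted minus unsorted host effect). At an unadjusted p under 0.05, for which no share of all genes is given here, 2 of the 8 genes differed. Those were Adar (difference of log2 differences 0.51 ± 0.20, unadjusted p = 0.0246, adjusted p = 0.185) and Ddx58 (0.37 ± 0.16, unadjusted p = 0.0457, adjusted p = 0.241). edgeR and DESeq2 also called 0 of the 8 genes. The Samhd1 effects of 1.01 and 1.26 differed by -0.25 ± 0.20 (adjusted p = 0.532), and the Tlr3 effects of 0.92 and 0.66 by 0.26 ± 0.16 (adjusted p = 0.382). Of all genes called here, 76.2% had a positive difference, against 54.1% with equal library totals and 58.1% with quantile normalization. A positive difference need not be a stronger host effect in sorted cells: the Ddx58 effects were -0.32 in sorted and -0.69 in unsorted cells.

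Around these genes, 88 others of the same pathways were listed in 6 groups by known role, and 80 of them were tested in sorted GFP+ cells. In that comparison 16 were higher and 8 lower in WT hosts, or 30%, against 30.4% of all genes. The DNA and endosomal sensors had 5 of 11 higher and none lower, with a median log2 difference of 0.57, and led with Ifi204, which binds DNA (1.88 ± 0.47, adjusted p = 0.0240), and Tmem173, the adaptor STING (0.73 ± 0.08, adjusted p = 0.00142). Ifi204 averaged 698 against 224 normalized counts and Tmem173 averaged 760.1 against 457. Ifi204 lost its call with the macrophage share of 18 markers subtracted (adjusted p = 0.125) and kept it with that of 17 (0.0169). The call was also lost without any 1 of WT GFP+ libraries 1 and 2 and Pfp/Rag2-/- GFP+ libraries 2 and 3 (0.0654 to 0.0849). Cofactors and regulators of the RIG-I-like receptors had 5 of 21 higher and 1 lower. Rnf135, a ubiquitin ligase that activates RIG-I, was higher (0.69 ± 0.10, adjusted p = 0.00357), as was Cyld, a deubiquitinase that restrains it (0.38 ± 0.08, adjusted p = 0.0126). The helicase Ddx60 was lower (-0.49 ± 0.15, adjusted p = 0.0495), a call lost without any 1 library other than WT GFP+ 3 (0.0605 to 0.151), and Cyld lost its call without Pfp/Rag2-/- GFP+ library 2 (0.0537). Ddx60 also lost its call with TMM factors (0.0532), edgeR (0.0567), no filter on low values (0.0709) or the macrophage share of 18 markers subtracted (0.0723).

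Signalling genes between adaptors and interferon had 2 of 19 higher and 3 lower. Tbk1, the kinase below Mavs, was higher (0.32 ± 0.06, adjusted p = 0.00999), and so was Traf3, which links them (0.24 ± 0.07, adjusted p = 0.0442). Tbk1 lost its call with all 18 libraries in 1 fit (adjusted p = 0.118) and without both GFP+ libraries numbered 1 (0.0646). Irf7, the interferon-induced factor that drives interferon alpha genes, averaged 1859 in WT and 3919.8 in Pfp/Rag2-/- GFP+ cells (-1.07 ± 0.20, adjusted p = 0.00863), and Tbkbp1, a partner of Tbk1, was lower at -1.28 ± 0.23 (adjusted p = 0.00711). Nucleases, editors and other control genes had 2 of 19 higher and 4 lower. Apobec3, a cytidine deaminase that restricts retroviruses, was 1.83-fold higher (0.88 ± 0.05, adjusted p = 0.00011), and the helicase Mov10 was higher at 0.43 ± 0.07 (adjusted p = 0.0055). The RNase genes Rnaset2a (-1.54) and Rnaset2b (-1.55) were lower, but they are near-identical copies whose reads the counting could split. Partners of the eIF2-alpha kinases had 2 of 10 higher and none lower, Ppp1r15b (0.52 ± 0.13, adjusted p = 0.0249), a phosphatase subunit that reverses the kinases, and Atf4 (0.34 ± 0.10, adjusted p = 0.0384), the factor translated when they act. Without any 1 library other than WT GFP+ 3, Traf3 (adjusted p = 0.0939 or higher) and Atf4 (0.0744 to 0.122) lost their calls, and so did Ppp1r15b in 4 of those 5 cases (0.0745 to 0.0874). Traf3 and Atf4 also lost theirs with no filter on low values, quantile normalization, equal library totals, all 18 libraries in 1 fit or either macrophage share subtracted (0.0501 to 0.508). Ppp1r15b did so with the macrophage share of 18 markers subtracted (0.0541). With equal library totals the DNA and endosomal sensors again had 5 higher and none lower (median 0.49), while the eIF2-alpha group had 1 higher and 1 lower. None of the 7 interferon genes passed the filter on low values in sorted GFP+ cells.

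In unsorted tumours 20 of 81 pathway genes were higher and 8 lower in WT hosts, or 34.6% against 29.9% of all genes. DNA and endosomal sensors had 8 of 11 higher and none lower (median 0.63), with Tlr8, an endosomal RNA receptor (2.43 ± 0.38, adjusted p = 0.00389), and Ifi204 (1.97 ± 0.11, adjusted p = 8.15e-05) at the top. Nucleases and editors had 8 of 19 higher and 3 lower. Dnase1l3, a secreted nuclease of macrophages and dendritic cells, averaged 323 against 9.58 (5.05 ± 0.55, adjusted p = 0.00106) and Apobec1 was higher at 1.46 ± 0.13 (adjusted p = 0.000421). The editor Adarb1, a relative of Adar, was lower at -0.67 ± 0.12 (adjusted p = 0.0057), as was the interferon-induced Samd9l (-0.67 ± 0.09, adjusted p = 0.00208). Cofactors had 1 of 21 higher, Rnf135 (0.56 ± 0.14, adjusted p = 0.0219), and 2 lower, Ddx60 (-0.67 ± 0.12, adjusted p = 0.00675) and Oasl2 (-0.43 ± 0.11, adjusted p = 0.0279). Signalling genes had 1 of 19 higher, the kinase gene Ikbke (1.75 ± 0.27, adjusted p = 0.00371), and 2 lower, Irf7 (-1.03 ± 0.13, adjusted p = 0.00195) and Traf6 (-0.67 ± 0.12, adjusted p = 0.00718). Of the eIF2-alpha group, Eif2s1, the kinases' substrate, was higher (0.28 ± 0.07, adjusted p = 0.0214) and Ddit3, a stress-induced factor, was lower (-0.44 ± 0.12, adjusted p = 0.0282). Ddit3 lost its call without WT unsorted library 2 or 3 or any 1 Pfp/Rag2-/- unsorted library. In these cases Rnf135 kept its call only without Pfp/Rag2-/- unsorted library 3. Oasl2 kept its own only without WT unsorted library 3, and Eif2s1 only without WT unsorted library 2. The lost calls had an adjusted p of 0.0513 to 0.0965. The counts of higher and lower genes per list were the same with TMM factors and with equal library totals. Interferon gamma (Ifng) stood at 21.2, 42.3 and 40.1 normalized counts in WT unsorted libraries and at 0 in all Pfp/Rag2-/- unsorted libraries. No pathway gene differed between the sorted and the unsorted host effect by limma, against 0.934% of all genes. At an unadjusted p under 0.05, for which no share of all genes is given here, 18 of 81 differed. On recovered reads edgeR called 0 of the pathway genes and DESeq2 called 9, and DESeq2 also called more of all genes than limma did.

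**Figure D3:**
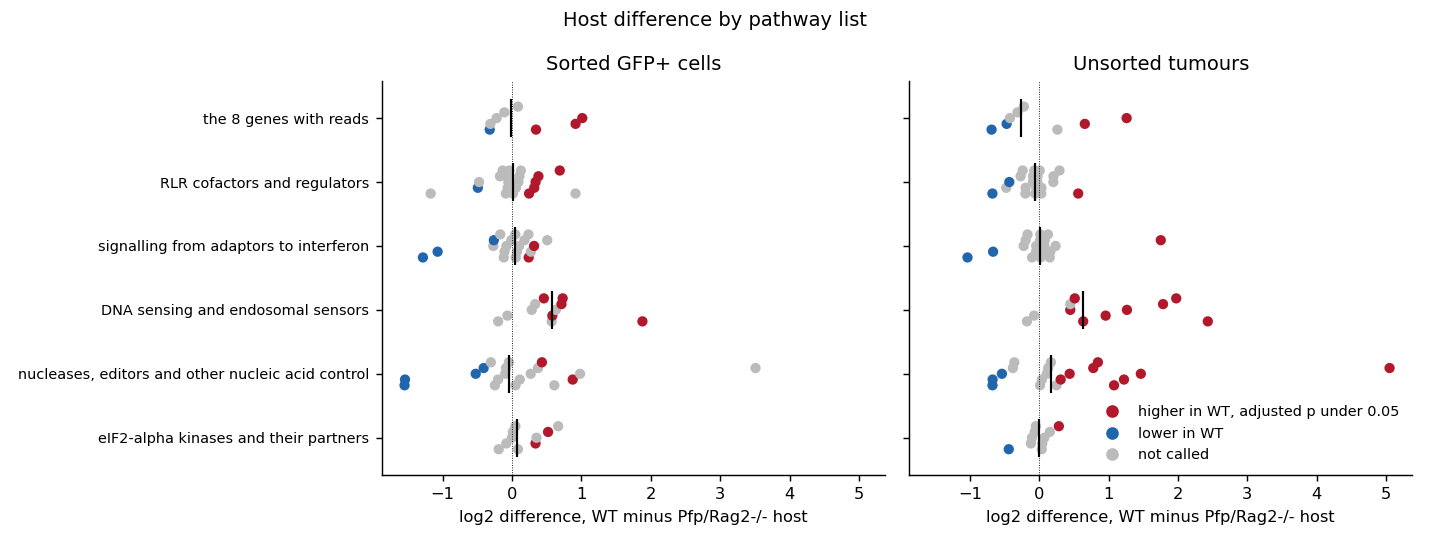
Log2 difference between WT and Pfp/Rag2-/- hosts (horizontal axes) for the 8 genes with reads and for the pathway lists, in sorted GFP+ cells (left) and unsorted tumours (right); each point is a gene, coloured by its call, and black bars are medians. DNA and endosomal sensors have medians of 0.57 and 0.63, and the 8 genes spread to both sides of 0.

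GFP- cells, sorted as the non-tumour fraction of WT tumours, were compared with GFP+ cells of the same hosts. Ifih1, Dhx58, Eif2ak2, Adar and Samhd1 were higher in GFP- cells and Ddx58 was lower, 6 of 8 genes against 76.4% of 16083 genes tested (42.7% higher and 33.7% lower). Groups did not overlap for the same number of the 8 genes, against 81.4% of all genes. The median log2 difference (GFP- minus GFP+) was 0.58 over the 8 genes and 0.19 over all genes. Macrophage and microglia markers summed to 87.4% to 122% of their mean in GFP- libraries against 1.63% to 3.51% in WT GFP+ cells, with all 18 present in both, and their part in these differences was not tested. The WT GFP+ libraries are the ones of the host comparison above, so the differences are not independent of it.

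Samhd1 stood at 18476, 21517 and 13033 normalized counts in GFP- cells, against 3439 to 4085.5 in WT GFP+ cells. The lowest GFP- library was far above the highest GFP+ one, a 4.55-fold higher level (log2 difference 2.19 ± 0.19, adjusted p = 0.000123). Dhx58 had 3061, 3391 and 2998 in GFP- cells against 911 to 1129 (1.63 ± 0.11, adjusted p = 5.07e-05). Ifih1 had 4085, 5091.5 and 4165 against 2051 to 2386 (1.02 ± 0.12, adjusted p = 0.000317). Neither sensor's groups overlapped. Adar had 4051, 4287 and 4038 against 2269.7 to 2598 (0.79 ± 0.08, adjusted p = 0.000248). Eif2ak2 had 2429, 2300.0 and 2586 against 1781 to 1941 (0.38 ± 0.08, adjusted p = 0.00532). In both genes all GFP- values were above all GFP+ values. Ddx58 was the exception among the helicases, with 3517, 4053 and 3585 in GFP- cells against 4568 to 5036.5 (-0.39 ± 0.09, adjusted p = 0.00656). Tlr3 had 608, 679 and 1119 in GFP- cells, a group whose highest library was GFP- 3, against 832 to 928 (-0.18 ± 0.23, adjusted p = 0.504). Without GFP- library 3 Tlr3 passed as lower (-0.45, adjusted p = 0.00783). Mavs had 687, 839.6 and 998 against 624 to 791 (0.28 ± 0.17, adjusted p = 0.171).

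The GFP- libraries had lower size factors than the rest, and several of these differences moved with the scaling. With equal library totals the median of all genes moved from 0.19 to -0.46, and with quantile normalization to -0.22, while the share of calls higher in GFP- cells moved from 55.9% to 37.2% and 43.4%. Samhd1 (1.53), Dhx58 (0.97) and Ifih1 (0.37) stayed higher and Ddx58 (-1.05) stayed lower with equal totals, all at an adjusted p under 0.05. Eif2ak2 turned to -0.28 and Mavs to -0.37, neither past the threshold, and Adar at 0.13 lost its call (adjusted p = 0.219). Tlr3 at -0.83 then passed as lower (adjusted p = 0.0282). With quantile normalization Eif2ak2 turned to -0.059.

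**Figure D4:**
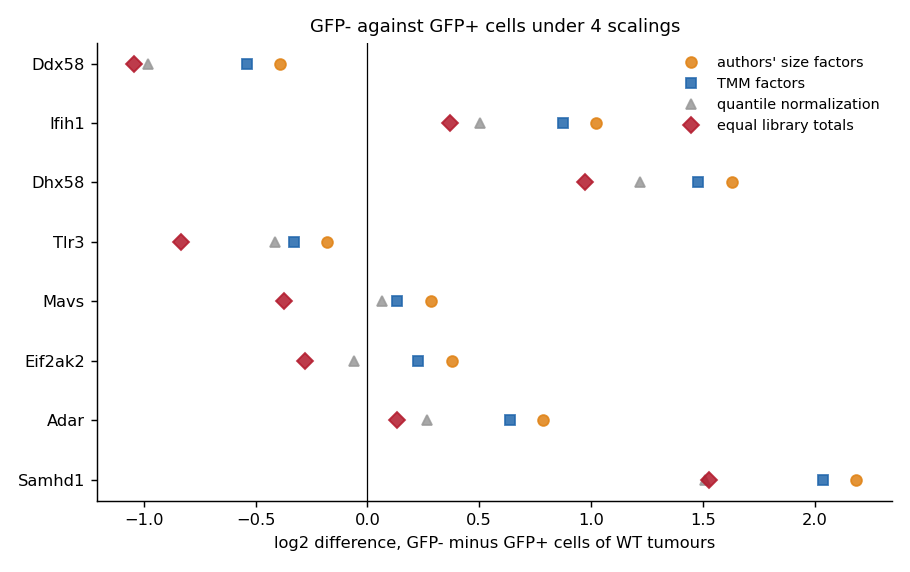
Log2 difference between GFP- and GFP+ cells of WT tumours (horizontal axis) for each gene under the authors' size factors, TMM factors, quantile normalization and equal library totals (symbols). Samhd1, Dhx58, Ifih1 and Adar stay right of 0 and Ddx58 and Tlr3 left of it, while Eif2ak2 (0.38 to -0.28) and Mavs (0.28 to -0.37) cross it.

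Of the pathway genes, 58 of 82 were higher in GFP- cells and 11 lower, or 84.1% against 76.4% of all genes. Among DNA and endosomal sensors 10 of 11 were higher and none lower, with Tlr8 at 6.50 ± 0.62 (adjusted p = 0.000175) and Tlr9, which reads DNA, at 6.33 ± 0.58 (adjusted p = 0.000144). Oasl1 (4.86 ± 0.45, adjusted p = 0.000147), which holds back Irf7 translation, and the RIG-I regulator Rnf125 (3.43 ± 0.30, adjusted p = 0.00012) led the cofactors, while Ywhae (-0.73 ± 0.08, adjusted p = 0.000337) and Mfn1 (-0.67 ± 0.10, adjusted p = 0.000968), partners of RIG-I and Mavs, were lower. Ikbke (5.07 ± 0.29, adjusted p = 3.65e-05) and Tbkbp1 (4.02 ± 0.18, adjusted p = 2.13e-05) led 17 of 19 signalling genes that were higher, with none lower. Among nucleases and editors, 13 of 19 were higher, led by Dnase1l3 (6.41 ± 0.33, adjusted p = 2.86e-05) and the RNase gene Zc3h12a (5.54 ± 0.56, adjusted p = 0.000209). The other 6 were lower, with Adarb1 at -1.89 ± 0.18 (adjusted p = 0.000179) and Pnpt1, a mitochondrial RNase, at -1.20 ± 0.12 (adjusted p = 0.000204). Ppp1r15a (2.60 ± 0.36, adjusted p = 0.00071) and Dnajc3, an inhibitor of Eif2ak2 (1.35 ± 0.11, adjusted p = 0.000106), were higher, and Tarbp2, another inhibitor of it, was lower (-0.40 ± 0.10, adjusted p = 0.00965). With equal library totals the signalling genes had 15 higher and 2 lower and the DNA and endosomal sensors 9 higher and 1 lower. Under that scaling the cofactors turned to 6 higher and 10 lower and the eIF2-alpha group to 2 higher and 3 lower, from 11 and 4 and from 5 and 1. Interferon beta (Ifnb1) stood at 79.5, 32.4 and 14.5 normalized counts in GFP- cells and at most 5.41 in any other library. Ifng stood at 1895, 958 and 1512 in GFP- cells and at 63.2, 1.90 and 9.21 in WT GFP+ cells, where library 1 was the highest.

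Tumour-grown GFP+ cells were compared with the cultured cells that were injected. Ddx58, Mavs and Eif2ak2 were lower after growth in either host, and Samhd1 went up in WT hosts and down in Pfp/Rag2-/- hosts. In WT hosts 6 of 8 genes were called, 2 higher and 4 lower, against 65.6% of 14261 genes tested (30.3% higher and 35.3% lower). In Pfp/Rag2-/- hosts 6 of 8 were called, 1 higher and 5 lower, against 72.2% of 14487 genes (35.1% higher and 37.1% lower). Groups did not overlap for 6 of the 8 genes in either host, against 71.9% and 76.8% of all genes. Both comparisons use the same 3 cultured libraries, so their values are set side by side without a test between them. The medians over the 8 genes were -0.21 and -0.41, against -0.04 and -0.01 over all genes.

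Cultured Ddx58 stood at 9655, 9356 and 9722 normalized counts, above every tumour library. The log2 difference was -0.98 ± 0.05 in WT hosts (adjusted p = 1.1e-06) and -0.66 ± 0.06 in Pfp/Rag2-/- hosts (adjusted p = 7.3e-06). Eif2ak2, at 3176, 2868.5 and 2961 in culture, differed by -0.68 ± 0.06 (adjusted p = 1.66e-05) and -0.57 ± 0.05 (adjusted p = 5.08e-06). Mavs, at 869, 916 and 883 in culture, differed by -0.38 ± 0.09 (adjusted p = 0.00631) and -0.73 ± 0.05 (adjusted p = 3.29e-06). Cultured values of these genes were above all those of sorted GFP+ tumour cells. Samhd1 had 2861, 2770.5 and 2775 in culture, between the hosts, and differed by 0.44 ± 0.07 in WT hosts (adjusted p = 0.000463) and -0.57 ± 0.09 in Pfp/Rag2-/- hosts (adjusted p = 0.000464). With the macrophage share subtracted the Samhd1 values were 0.25 (adjusted p = 0.0392) and -0.87, and with the share from the 17 markers without Tmem119 they were 0.32 (0.00528) and -0.74.

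Tlr3 had 628, 482 and 557 in culture. In WT hosts it was higher by 0.66 ± 0.10 (adjusted p = 0.000454), and in Pfp/Rag2-/- hosts the groups overlapped at -0.25 ± 0.12 (adjusted p = 0.0887). There it passed as lower without cultured library 2 (-0.35, adjusted p = 0.0387) or Pfp/Rag2-/- GFP+ library 3 (-0.34, 0.0457). Dhx58 had 899, 898 and 939 in culture, overlapped the WT group (0.16 ± 0.08, adjusted p = 0.118) and was below all Pfp/Rag2-/- values (0.47 ± 0.08, adjusted p = 0.00063). Dhx58 passed in WT hosts with edgeR (adjusted p = 0.0437), DESeq2 (0.0487), equal library totals (0.24, 0.0428) and without WT GFP+ library 2 (0.24, 0.0194), and with the macrophage share subtracted it stood at 0.03 (adjusted p = 0.723), or at 0.08 (0.447) with the share from 17 markers. Ifih1 had 2844, 2516 and 2607 in culture, was lower in WT hosts (-0.29 ± 0.07, adjusted p = 0.00764) and did not pass in Pfp/Rag2-/- hosts (-0.06 ± 0.07, adjusted p = 0.390). With quantile normalization the Ifih1 call in WT hosts was lost (adjusted p = 0.156) and Pfp/Rag2-/- hosts gave 0.17, which passed as higher (0.0399). The call in WT hosts was also lost with all 18 libraries in 1 fit (0.0542). Adar had 2763, 2554 and 2576 in culture, against which WT hosts gave -0.14 ± 0.06 (adjusted p = 0.0875) and Pfp/Rag2-/- hosts -0.22 ± 0.06 (adjusted p = 0.00957). Without WT GFP+ library 2, Adar passed as lower in WT hosts too (-0.20, adjusted p = 0.0164). With equal library totals the Ifih1 call in WT hosts (adjusted p = 0.0544) and the Adar call in Pfp/Rag2-/- hosts (-0.05, adjusted p = 0.457) were lost. In the Pfp/Rag2-/- comparison that scaling moved the median of all genes from -0.01 to 0.16 and the share of higher calls from 48.6% to 62.4%.

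**Figure D5:**
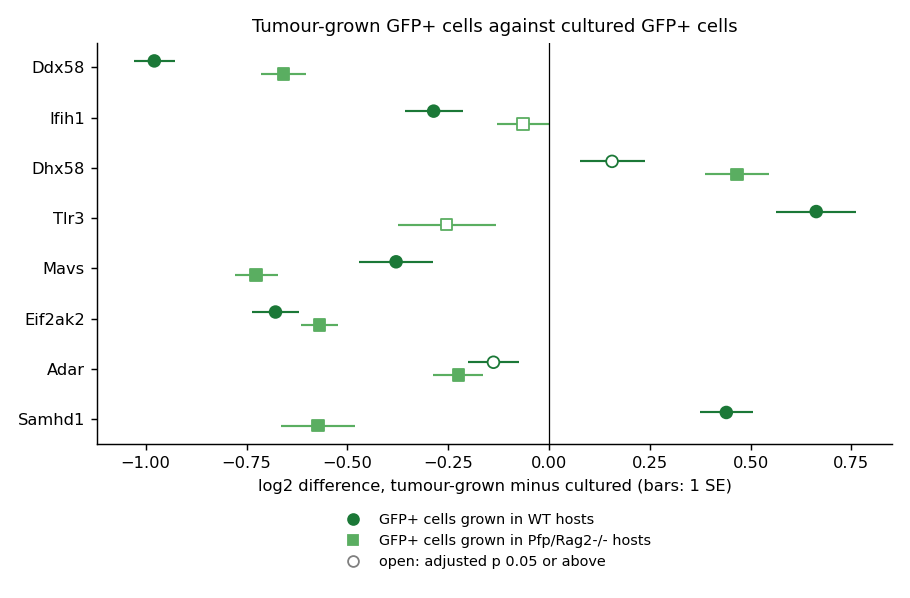
Log2 difference between tumour-grown and cultured GFP+ cells (horizontal axis) for each gene, for cells grown in WT hosts (circles) and in Pfp/Rag2-/- hosts (squares); bars are 1 SE and filled symbols have an adjusted p under 0.05. Samhd1 lies at 0.44 and -0.57 and Tlr3 at 0.66 and -0.25 in the WT and Pfp/Rag2-/- hosts, while Ddx58 lies left of 0 in both.

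Against culture, pathway genes had 24 higher and 26 lower of 78 in WT hosts (64.1%) and 23 higher and 33 lower of 77 in Pfp/Rag2-/- hosts (72.7%), against 65.6% and 72.2% of all genes. The cofactors and regulators of the RIG-I-like receptors had 3 higher and 9 lower of 21 in WT hosts and 2 higher and 13 lower in Pfp/Rag2-/- hosts. Signalling genes had 7 higher and 6 lower of 19, and 8 higher and 5 lower. DNA and endosomal sensors had 6 higher and 2 lower of 9 in WT hosts, and 6 higher and 3 lower of 9 in Pfp/Rag2-/- hosts. With equal library totals the pathway genes had 27 higher and 20 lower in WT hosts and 30 higher and 21 lower in Pfp/Rag2-/- hosts, while the cofactors still had more lower than higher (3 and 7, then 4 and 10).

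Unsorted cells were compared with the sorted GFP+ cells of the same host. In WT hosts Tlr3 alone was called, higher in unsorted cells by 0.48 ± 0.11 (adjusted p = 0.0277), against 16.8% of 15275 genes tested (10.3% higher and 6.46% lower), and it lost its call without any 1 library other than WT unsorted 1 (adjusted p = 0.0617 to 0.115). Without WT unsorted library 1, Dhx58 (0.38, adjusted p = 0.0462), Eif2ak2 (0.45, 0.0139) and Samhd1 (0.38, 0.0332) were also called as higher. In Pfp/Rag2-/- hosts Tlr3 (0.74 ± 0.11, adjusted p = 0.00362), Eif2ak2 (0.48 ± 0.05, adjusted p = 0.00141) and Ifih1 (0.35 ± 0.07, adjusted p = 0.00861) were higher in unsorted cells and none was lower, 3 of 8 against 30.2% of 15324 genes (19.1% higher and 11.1% lower). Groups did not overlap for 2 of the 8 genes in WT hosts, against 40.2% of all genes, and for 4 in Pfp/Rag2-/- hosts, against 48%. In WT hosts Tlr3 averaged 1223 ± 139 (SD, n = 3) in unsorted tumours, 876 ± 48.6 in GFP+ cells and 802 ± 277 in GFP- cells, and the highest GFP- library (1119) lay within the unsorted range. Samhd1 differed by -0.02 ± 0.12 in Pfp/Rag2-/- hosts (adjusted p = 0.911). The share of all calls that were higher in unsorted cells was 61.4% in WT and 63.3% in Pfp/Rag2-/- hosts, and 48.5% and 49.2% with quantile normalization or 47.8% and 51.8% with TMM factors. Pathway genes had 12 higher and 4 lower of 81 in WT hosts, and 12 higher and 6 lower of 79 in Pfp/Rag2-/- hosts, where TMM factors gave 5 higher and 9 lower.

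Across the 18 libraries each gene's log2 pattern, centred on its mean, was set against 11210 genes by the root mean square difference, where 0 is an identical pattern. Libraries of a group share their cells, so this is a description. Ddx58, whose own pattern had a root mean square of 0.47, was closest to Atrn (0.11) and Aplp2 (0.13). Ifih1 was closest to Snrk (0.11) and Cdk13 (0.12), Dhx58 to Sirt2 (0.13) and Zfp691 (0.15), and Tlr3 to Tmem176b (0.24) and Rbm43 (0.27). Mavs was closest to Mcmbp (0.10) and Cdc37 (0.12), Eif2ak2 to Zfp46 (0.12) and Ankib1 (0.14), and Adar to Pcnx (0.10) and Ankfy1 (0.11). Samhd1 had the widest pattern (1.10) and was closest to Grn (0.22) and Itm2b (0.24). None of the 9 genes was among the 2 nearest of another.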

How the data were processed

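RNA of 18 libraries was prepared with mRNA isolation and directional library kits and read on a NextSeq 500, per the labels' protocols. The file deposited by the authors holds a signal, the reads of each gene divided by a library's size factor (here called normalized counts). STAR 2.5.2b, DESeq2 and GRCm38 are named in the submitters' processing notes. A read counter was not given in the sources used here, nor an annotation release. Divided by each library's smallest step, 100% of values came within 0.05 of a whole read, and these reads went into the count-based alternatives.

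Ensembl IDs were matched to GENCODE symbols (48349 of 48795). Each comparison was fitted to its own groups with limma 3.58.1 (lmFit, eBayes with trend, two-sided) in R 4.3.3, on log2 of the value plus 1, for genes at 10 or more in at least 3 of its libraries. Calls had a Benjamini-Hochberg adjusted p under 0.05 over all genes tested. The plan had named edgeR for raw counts; the table held normalized values, so limma was the main test. Other settings tried were a pseudocount of 10, a low-value filter of 50 or none, TMM or quantile scaling, a joint fit of all 18 libraries, count tests on the recovered reads (edgeR 4.0.16 with its quasi-likelihood test, DESeq2 1.42.0), the replicate number as block, leaving out each library with the gene set kept, and, for sorted cells, subtracting the macrophage share. Equal library totals, leaving out both GFP+ libraries numbered 1 and a macrophage share without Tmem119 were chosen after seeing the data. The fitting scripts were tested on simulated data.

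Same-numbered sorted GFP+ libraries of the 2 hosts deviated together (correlations 0.62, 0.48 and 0.10 for numbers 1, 2 and 3), though the labels state no pairing. The other comparisons had at least 1 pair at or under 0.1. Among them, GFP- and GFP+ cells of WT tumours had 0.21, 0.07 and 0.32. Whether those fractions share tumours is not labelled. Their main test was unpaired, with the replicate number as block only as an alternative.

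The genes and lists were chosen with earlier results of these data known. Named were all 9 genes and, per pathway list, up to 2 highest and 2 lowest called genes in both host comparisons and in GFP- against GFP+ cells; for likeness, the 2 nearest genes with a mean of at least 100; and Prf1 and Rag2.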

Additional observations from a re-analysis of the deposited data

How the results depend on the processing

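For the log2 differences of the 8 genes, 13 cases of 1 difference under 1 alternative changed sign, some differences doing so under more than 1, and none of those of the named pathway genes did. In GFP- against GFP+ cells Eif2ak2 turned to -0.059 with quantile normalization and -0.28 with equal totals, and Mavs to -0.37 with equal totals. Against culture, quantile normalization gave 0.0091 for Adar in WT hosts, and 0.0099 for Adar and 0.17 for Ifih1 in Pfp/Rag2-/- hosts (past the threshold, adjusted p = 0.0399), where equal totals gave 0.11 for Ifih1. Adar in the sorted host comparison was -0.0033 with quantile normalization. Leaving out 1 library gave -0.020 to 0.15 for Mavs and -0.26 to 0.0044 for Dhx58 in the interaction (the sorted minus the unsorted host effect), -0.021 to 0.23 for Ifih1 in WT unsorted against GFP+ cells, and -0.11 to 0.10 for Samhd1 in the Pfp/Rag2-/- ones. The cause of these changes was not tested.

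Counts moved by over 1.5 times as follows. In sorted host cells the 4 genes became 7 with quantile normalization, where all 4497 calls moved by at most 1.5 times. The 4 genes became 2 with all 18 libraries or without both libraries numbered 1, where all calls became 2971 and 2340. The 151 genes of the interaction became 61 without a filter, 298 with a filter at 50, 270 with quantile normalization, 34 with all 18 libraries, 70 by edgeR and 1216 by DESeq2, and its 0 pathway genes became 9 by DESeq2 and 1 with the replicate block. In WT unsorted against GFP+ cells all 2559 calls became 1619 with a filter at 50 and 4430 with all 18 libraries, and 16 pathway genes became 10 with the replicate block. In Pfp/Rag2-/- hosts 4625 calls became 2686 and 18 pathway genes became 10 with all 18 libraries.

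Leaving out 1 library gave, for sorted host cells, 2522 to 5532 calls, 2 to 6 of the 8 genes and 14 to 32 pathway genes. For unsorted host cells it gave 2280 to 6142 calls and 17 to 35 pathway genes. The interaction ranged from 0 to 1105 calls and 0 to 7 pathway genes. Unsorted against GFP+ cells ranged from 356 to 3323 calls, 0 to 4 of the 8 genes and 2 to 21 pathway genes in WT hosts, and from 2928 to 4764 calls and 10 to 26 pathway genes in Pfp/Rag2-/- hosts.

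The replicate block changed the call of Dhx58 in the sorted host comparison and of Tlr3 in Pfp/Rag2-/--grown cells against culture (-0.25, adjusted p = 0.0189), and of no other of the 8 genes. With all 18 libraries in 1 fit Mavs passed in GFP- against GFP+ cells (adjusted p = 0.0347) and Adar in WT unsorted against GFP+ cells (0.0311), while Adar lost its call in Pfp/Rag2-/--grown cells against culture (0.142), as did Tlr3 (0.0638) and Ifih1 (0.0532) in unsorted against GFP+ cells of WT and Pfp/Rag2-/- hosts. Samhd1 and Tlr3 kept direction and call in both host comparisons under every alternative run. With 3 libraries a group, the SE of the log2 differences was 0.05 to 0.12 for the 8 genes in the sorted host comparison, which limits what these data can resolve.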
